A study of Mus musculus with 6 samples.

Results

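The 45 genes described here act in the G2 phase and in mitosis: the cyclins and the kinase that start mitosis, the spindle checkpoint, the chromosomal passenger complex, kinetochore and centromere proteins, spindle motors, cytokinesis proteins, the machinery of anaphase, and condensin with other proteins of chromosome structure. They were picked by gene symbol from a list of mitotic genes, and each of the 45 had a row among the 55421 genes of the deposited table. The rule itself uses no measured value, but the list was drawn up with earlier results of these data known. Total RNA of germinal centre B cells was sequenced in 3 SFR KO and 3 wildtype C57BL/6 samples. In SFR KO mice the SLAM receptor genes Cd244, Ly9, Slamf7, Cd48, Slamf1, Cd84 and Slamf6 are deleted together, by a single deletion that begins in the first intron of Cd244 and ends in the eighth exon of Slamf6. Mice of both genotypes carried a GFP reporter that marks germinal centre B cells, and had been immunized with the hapten-protein conjugate NP(18)OVA in alum. Spleens were taken on day 9 and the GFP+ cells were sorted. The labels give neither the age of the mice nor whether each sample came from 1 mouse, and the spread that the p-values rest on may therefore be technical.

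Germinal centre B cells are among the fastest dividing cells of the body, and they divide mainly in the dark zone of the germinal centre. Transcripts of mitotic genes accumulate late in the cell cycle. Cyclin B with the kinase CDK1 then drives entry into mitosis, the spindle checkpoint holds the cell until each chromosome is attached, and the anaphase-promoting complex ends mitosis by marking cyclin B and securin for destruction. Many of these genes are switched on together through promoters that hold CCAAT boxes, bound by NF-Y, and a cell cycle genes homology region (CHR), bound by MuvB complexes with B-MYB and FOXM1 in dividing cells.

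The promoters show what the members share in sequence. RefSeq windows (GRCm38.p6, 250 bases before to 50 bases after a start) were matched for 37 of the 45 members, which have 40 such promoters. Both strands were searched for CCAAT and for the CHR. The commonest form of the CHR reads TTTGAA, and a match to a second form, TTTAAA, or to the form written TTCGAA also counted. A CHR match was present in 35 of the 40 member promoters (87.5%) and in 28.8% of all 32851 promoters. At least 1 CCAAT was in 31 member promoters (77.5%) against 37.4% of all, and both motifs were in 31 (77.5%) against 11.3%. A CHR match within 50 bases of the start was present in 30 of the 40 (75.0%), against 8.6% of all promoters. Among the 11657 promoters of tested coding genes, 21.4% held a CHR match, 38.2% a CCAAT, 8.7% both, and 5.7% a CHR match near the start. Ect2, Prc1 and Bub3 each have overlapping windows, so the same matches count more than once among the 40. Of the 140 promoters matched for other mitotic genes, 48.6% held a CHR match, 29.3% held both motifs and 30.7% held a CHR match near the start. A CCAAT and a CHR match overlapped in 1 member promoter, that of Cdca8. A match is a description of the letters and not evidence that a factor binds. The windows below are shown for the members that the results turn on: Ccnb1 (cyclin B1), Ccnb2 (cyclin B2) and Ube2c, which were higher in all SFR KO libraries, Top2a and Mki67, which had the most reads, and Mad2l1, which had the smallest p-value and no match to either motif in its window. Capitals mark the CCAAT boxes, or ATTGG where the box is on the other strand, and the CHR matches, or TTCAAA where TTTGAA is on the other strand.
Ccnb1, chr13:100786437-100786736, minus strand: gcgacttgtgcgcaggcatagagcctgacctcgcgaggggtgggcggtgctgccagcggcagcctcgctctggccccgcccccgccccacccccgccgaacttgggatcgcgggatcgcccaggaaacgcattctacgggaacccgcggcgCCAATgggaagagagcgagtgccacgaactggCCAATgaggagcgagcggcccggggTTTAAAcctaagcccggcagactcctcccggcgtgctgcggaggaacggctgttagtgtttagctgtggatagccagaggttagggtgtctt
Ccnb2, chr9:70421505-70421804, minus strand: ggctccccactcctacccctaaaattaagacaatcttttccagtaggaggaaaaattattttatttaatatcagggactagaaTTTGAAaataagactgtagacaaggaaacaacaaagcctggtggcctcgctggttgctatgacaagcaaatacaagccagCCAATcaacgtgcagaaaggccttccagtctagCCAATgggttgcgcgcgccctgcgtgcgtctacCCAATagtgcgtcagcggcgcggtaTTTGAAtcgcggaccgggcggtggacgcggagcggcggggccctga
Ube2c, chr2:164769679-164769978, plus strand: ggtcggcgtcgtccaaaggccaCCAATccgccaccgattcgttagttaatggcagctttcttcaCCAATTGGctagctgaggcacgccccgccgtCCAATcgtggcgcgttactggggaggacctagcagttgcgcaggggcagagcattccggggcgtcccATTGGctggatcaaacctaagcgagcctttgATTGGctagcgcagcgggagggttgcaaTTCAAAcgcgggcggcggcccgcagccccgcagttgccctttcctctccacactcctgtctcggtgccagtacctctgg
Top2a, chr11:99024140-99024439, minus strand: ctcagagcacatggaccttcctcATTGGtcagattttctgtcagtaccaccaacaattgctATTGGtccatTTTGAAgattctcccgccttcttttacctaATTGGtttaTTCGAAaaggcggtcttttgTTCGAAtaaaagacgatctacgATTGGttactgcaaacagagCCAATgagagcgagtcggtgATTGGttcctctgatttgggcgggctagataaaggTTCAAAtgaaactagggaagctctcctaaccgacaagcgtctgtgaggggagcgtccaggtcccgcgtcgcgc
Mki67, chr7:135716330-135716629, minus strand: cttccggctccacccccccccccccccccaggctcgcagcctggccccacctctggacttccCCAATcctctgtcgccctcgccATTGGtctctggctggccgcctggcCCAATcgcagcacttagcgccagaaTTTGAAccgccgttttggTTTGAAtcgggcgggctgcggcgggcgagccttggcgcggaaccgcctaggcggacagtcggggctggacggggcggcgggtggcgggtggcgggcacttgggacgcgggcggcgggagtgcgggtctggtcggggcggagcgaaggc
Mad2l1, chr6:66534971-66535270, plus strand: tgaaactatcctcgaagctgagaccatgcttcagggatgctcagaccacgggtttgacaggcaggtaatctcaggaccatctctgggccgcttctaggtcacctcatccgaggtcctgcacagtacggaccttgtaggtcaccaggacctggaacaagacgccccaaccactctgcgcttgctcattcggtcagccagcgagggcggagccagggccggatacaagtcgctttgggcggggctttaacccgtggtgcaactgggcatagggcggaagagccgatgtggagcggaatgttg
The Ube2c window holds the run CCAATTGG, which carries a CCAAT on each strand and counts as 2 boxes. The Mad2l1 window ends before the gene start of the GENCODE M21 annotation (chromosome 6, 66535390), since RefSeq places the start further upstream. The Kif2c window (chromosome 4, 117178723 to 117179022, minus strand) lies inside the gene of that annotation, which starts at 117182639.

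The libraries held 31260196, 28269310 and 33053024 reads assigned to genes in SFR KO, against 33041831, 30413716 and 30354086 in wildtype. The deleted genes checked the labels: Ly9 and Cd84 had 0 reads in each SFR KO library, and Slamf6 had 4.4 to 14.0 normalized reads in SFR KO against 1576.4 to 3042.7 in wildtype. Bcl6, a gene that defines germinal centre B cells, was present in every library, with 13496.4 to 14234.9 normalized reads in SFR KO and 14731.8 to 16046.3 in wildtype. It was lower in SFR KO without overlap, as were 11.9% of all tested genes (limma adjusted p = 0.245). The listed germinal centre markers did not share that direction: of 11, 6 were higher in SFR KO and 5 lower. Transcripts that mark other cells were present in unequal amounts. The 7 markers of resting follicular B cells had reads in every library and summed to 17398.3, 9572.9 and 9470.6 normalized reads in SFR KO, against 18701.2, 18830.1 and 14680.0 in wildtype. The 8 neutrophil genes listed, of which 7 were tested, summed to 1950.0, 389.7 and 610.6 in SFR KO, against 6710.6, 1080.1 and 925.3 in wildtype. The neutrophil genes Elane and Mpo were at 0 in some libraries. The 5 red cell genes summed to 4183.8, 1538.2 and 2925.8 in SFR KO, against 7686.2, 1602.2 and 1417.9 in wildtype. T cell genes summed to between 751.1 and 926.2 in SFR KO and between 399.2 and 907.7 in wildtype. Macrophage genes summed to between 722.6 and 1803.2 in SFR KO and between 737.4 and 1446.6 in wildtype. In bulk samples such as these, fewer cells of a type and less RNA per cell cannot be told apart.

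All 45 members were expressed in both genotypes, most of them strongly. Their mean over the 6 libraries ran between 444.4 normalized reads for Pttg1 (securin, the inhibitor of separase) and 62071.9 for Mki67, the gene of the proliferation marker Ki-67. Each of the 45 therefore passed the minimum mean of 10 normalized reads and was tested. Per kilobase of transcript, a scale on which genes can be compared, their levels spanned 21.9-fold, between 373.5 normalized reads per kb for Anln (anillin, a scaffold of the cleavage furrow) and 8167.5 for Top2a, the topoisomerase that untangles sister chromatids. All 45 lay above the median of the 11399 tested protein-coding genes with a transcript length, which was 320.6 per kb, and the median member lay at percentile 89.8. That length is of the principal transcript, and for 5 members the longest coding transcript is more than 1.5 times as long. With the longest transcript of every gene, 44 of the 45 lay above the coding median of 291.0 per kb, and Pttg1 lay below it at 265.5. On the principal transcript, after Top2a came Ube2c, the ubiquitin-conjugating enzyme of the anaphase-promoting complex, at 6520.9 per kb, Mki67 at 6169.6, Birc5 (survivin) at 5354.5 and Cdc25b, a phosphatase that activates CDK1, at 4527.4. On the longest transcript Ube2c ranked 12 and Birc5 27 among the 45, so their places depend on that choice, while Top2a and Mki67 stood at the same level per kb on both. The lowest besides Anln were Cdc25c at 497.2, the checkpoint kinase gene Ttk at 574.2 and Pttg1 at 599.7 per kb. The coefficient of variation between libraries of a genotype had a median over the members of 5.28% in SFR KO and 5.35% in wildtype. In SFR KO it reached 22.33% for Mki67, 17.89% for Cenpe and 14.59% for Cenpf, against 7.44%, 5.66% and 6.45% in wildtype. Over the 5536 genes that averaged 1000 normalized reads or more the median was lower, 5.07% in SFR KO and 4.45% in wildtype.

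**Figure D1:**
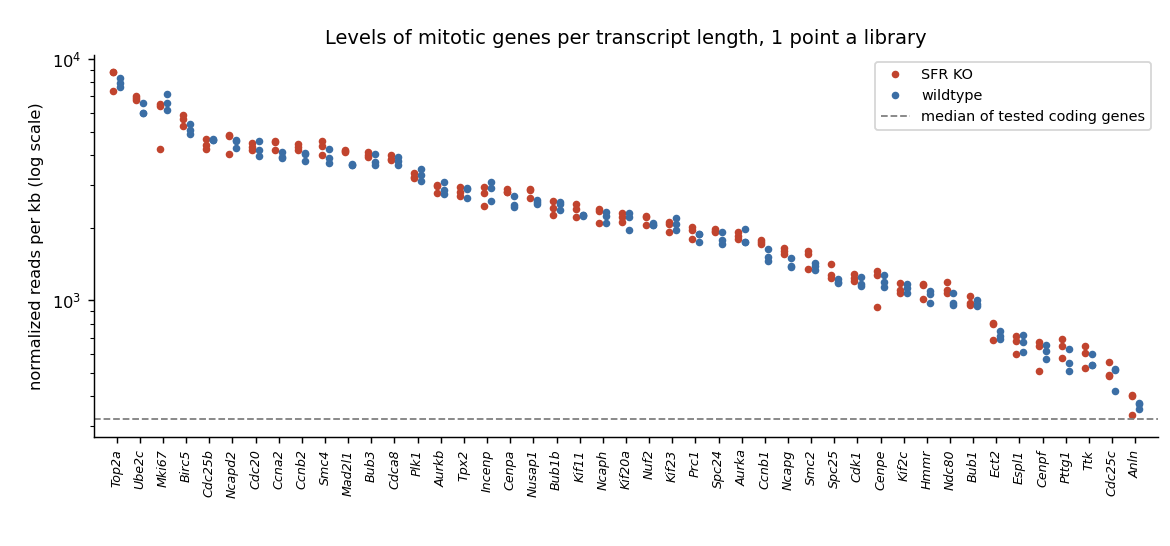
Level of each of the 45 mitotic genes in normalized reads per kb of transcript (log scale), with 1 point per library, the 3 SFR KO libraries in red left of the 3 wildtype libraries in blue, and the dashed line at the median of tested coding genes (320.6). Top2a stands at the top and Anln at the bottom, and the 2 genotypes differ far less than the genes do; the low red point of Mki67 is SFR KO 1.

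The comparison of the genotypes asks whether loss of the SLAM receptors altered the mitotic programme of germinal centre B cells. Most members stood slightly higher in SFR KO, but limma's adjusted p passed 0.05 for none of the 45, higher or lower. Among all 13562 tested genes limma called 63, or 0.465%. At an unadjusted p under 0.05 there were 10 members, each of them higher in SFR KO (22.2%), against 7.04% of tested genes that were higher at that level. The log2 difference, SFR KO minus wildtype, was above 0 for 34 of the 45 members (75.6%), against 49.3% of all tested genes. Its median was 0.07 for the members and -0.00 for all tested genes. The range was narrow, with extremes at -0.24 for Mki67 (0.849-fold) and 0.19 for Mad2l1 (14.0% higher), and 44 of the 45 differed by less than 0.2. The 95% intervals of 44 members lay within 0.5 of 0 on the log2 scale, and 10 intervals excluded 0.

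For 9 members all 3 SFR KO libraries lay above all 3 wildtype libraries, and for none did they lie below. The 9 are Ccna2, Ccnb1, Ccnb2, Cenpa, Mad2l1, Ncapg, Nusap1, Spc25 and Ube2c, which is 20.0% of the members against 9.78% of tested genes with that order and 11.9% with the opposite order. This count changed with the treatment of base composition and length. After each library's trends with GC content and transcript length were removed, the groups did not overlap for 2 members, Ccnb2 and Ube2c, against 7.4% of tested genes. That step also removes any genotype difference that goes with GC content or length, and cannot tell it from a library effect. The count also depended on SFR KO 1, since without that library 22 members did not overlap, against 18.1% of tested genes. Without wildtype 3 the count was 15, against 14.6%. The median log2 difference of the members was 0.03 with both trends removed. It was 0.11 without SFR KO 1, but 0.02 without SFR KO 2 and 0.03 without wildtype 1. Over the 21 alternatives run it lay between 0.02 and 0.11.

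Counts of called members under other tests were few. edgeR on the reads called 0 members, against 0.221% of tested genes. DESeq2 called 1, Mad2l1, against 4.53% of the genes it gave an adjusted p. In the authors' deposited table Mad2l1 was also the 1 member with an adjusted p under 0.05, at 0.019, against 4.8% of the genes with one. Without SFR KO 1 limma called Mad2l1 at an adjusted p of 0.0444, against 3.7% of tested genes. With library weights limma called 3 members, Ccna2, Mad2l1 and Ncapg, against 4.65% of tested genes.

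**Figure D2:**
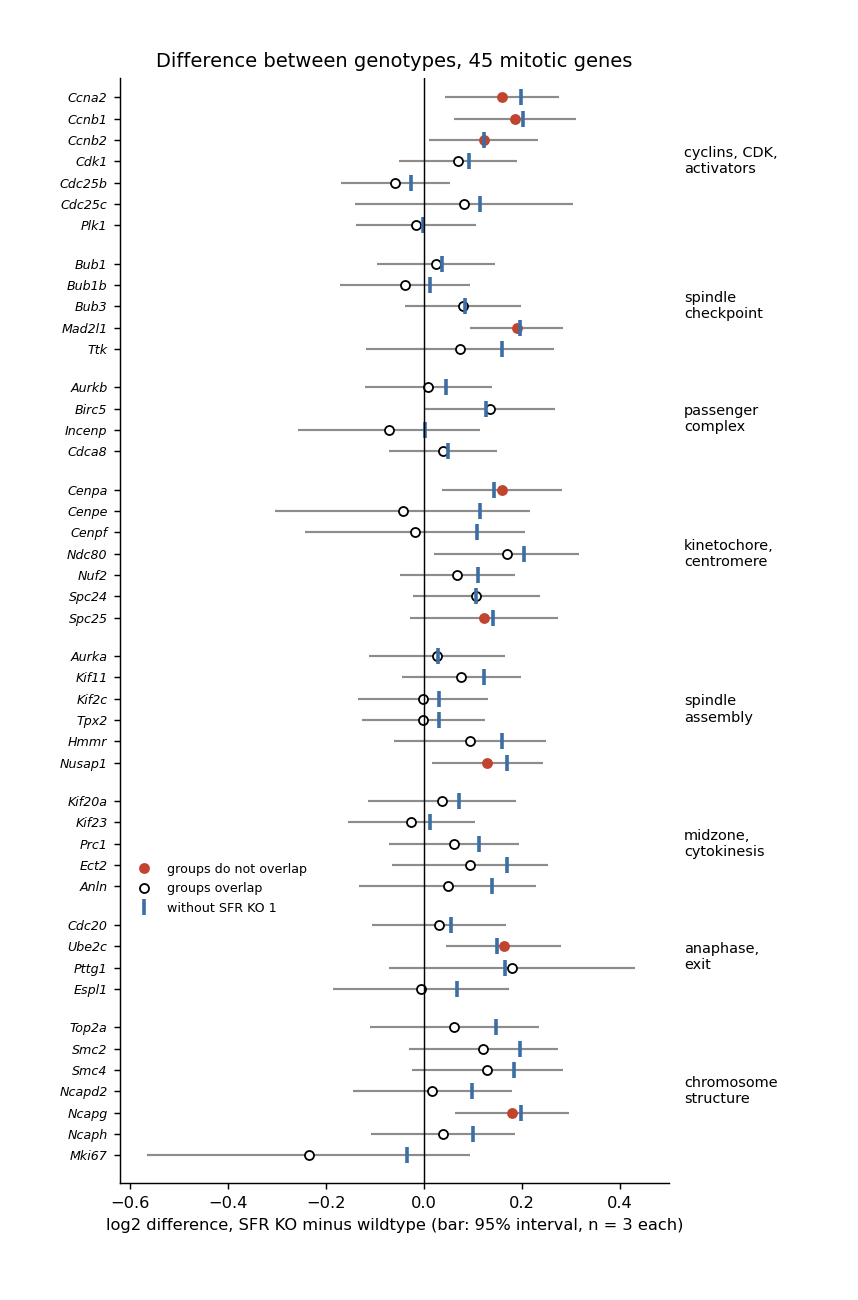
Log2 difference of each of the 45 mitotic genes, SFR KO minus wildtype, with bars for 95% intervals (n = 3 libraries each), red points where the groups did not overlap and blue ticks for the value without SFR KO 1. Points lie between -0.24 (Mki67) and 0.19 (Mad2l1), 34 of them above 0, and the blue ticks of long genes such as Mki67 lie to the right of their points.

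Of the 7 genes of mitotic entry, 3 were higher in SFR KO without overlap, against 9.78% of all tested genes. None of the 7 passed the adjusted test, and their median log2 difference was 0.08. The role groups hold 4 to 7 genes each, too few for such counts to be read as results about a group. Ccnb1, which encodes cyclin B1 (GRCm38 chromosome 13, 100778650 to 100786570), had 4243.9, 4360.6 and 4420.6 normalized reads in SFR KO, against 3629.9, 3771.6 and 4066.9 in wildtype. Every SFR KO library was above every wildtype library, by a log2 difference of 0.18 ± 0.06 (standard error; adjusted p = 0.157 in limma). Ccna2, the gene of cyclin A2, which acts in S phase and early mitosis, had 12490.3, 13435.4 and 13603.6 in SFR KO, against 11526.0, 11623.4 and 12236.2 in wildtype. Its groups were likewise apart, at 0.16 ± 0.05 (adjusted p = 0.193). Ccnb2 had 6600.9, 6789.9 and 6425.8 in SFR KO, against 5806.7, 6189.2 and 6218.2 in wildtype, a difference of 0.12 ± 0.05 (adjusted p = 0.269). Its groups stayed apart with the GC and length trends removed. The kinase gene Cdk1, the partner of these cyclins, overlapped between the groups at 0.07, as did the polo-like kinase gene Plk1 at -0.02. Cdc25b had 13089.4, 14395.5 and 13624.3 in SFR KO, against 14224.0, 14198.0 and 14380.4 in wildtype. SFR KO 2 was the highest of all 6 and the other 2 SFR KO libraries were the lowest, with a difference of -0.06 ± 0.05 (adjusted p = 0.608).

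Among the 5 genes of the spindle checkpoint, Mad2l1 was the member with the most regular difference. It encodes MAD2, which blocks the activator of the anaphase-promoting complex while chromosomes are unattached (chromosome 6, 66535390 to 66547220). It had 7101.4, 7271.6 and 7174.1 normalized reads in SFR KO, against 6289.8, 6298.9 and 6318.7 in wildtype. Libraries of a genotype lay close together and the genotypes did not overlap. The log2 difference was 0.19 ± 0.04 and the limma adjusted p was 0.0915, with adjusted p-values between 0.00871 and 0.745 over 21 alternatives. With the GC and length trends removed the difference was 0.05 and the groups overlapped. The checkpoint kinase genes Bub1 and Ttk stood at 0.02 and 0.07, the checkpoint scaffold genes Bub1b and Bub3 at -0.04 and 0.08, and all 4 overlapped between the genotypes.

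The 4 genes of the chromosomal passenger complex, which corrects faulty attachments and guides cytokinesis, had a median log2 difference of 0.02. None was apart between the groups, while of all tested genes 9.78% were higher and 11.9% lower without overlap. Birc5, which encodes the survivin subunit, had 5362.3, 5559.4 and 4997.5 normalized reads in SFR KO, against 4609.1, 4794.2 and 5101.9 in wildtype. SFR KO 3 lay below wildtype 3, and the difference was 0.13 ± 0.06 (adjusted p = 0.307). The kinase gene Aurkb stood at 0.01, the borealin gene Cdca8 at 0.04 and the scaffold gene Incenp at -0.07.

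The 7 kinetochore and centromere genes had the highest median among the 8 role groups, 0.11, which was -0.00 with the GC and length trends removed. Cenpa, the histone H3 variant that marks centromeres, had 4248.8, 4116.4 and 4114.3 normalized reads in SFR KO, against 3637.3, 3582.8 and 3973.4 in wildtype. The groups did not overlap, at 0.16 ± 0.05 (adjusted p = 0.212). Ndc80, whose protein binds microtubules at the kinetochore, had 2349.1, 2623.1 and 2437.9 in SFR KO, against 2095.0, 2349.9 and 2147.2 in wildtype. Its lowest SFR KO library lay just below its highest wildtype library, and the difference was 0.17 ± 0.07 (adjusted p = 0.25). Its partners in the NDC80 complex stood at 0.07 (Nuf2), 0.11 (Spc24) and 0.12 (Spc25), and of these Spc25 did not overlap. Spc25 had 1515.5, 1688.2 and 1469.5 in SFR KO, against 1412.2, 1414.5 and 1460.6 in wildtype, so the gap between the groups was narrow. The long genes of this group went another way in 1 library. Cenpe, a kinetochore motor, had 7385.2, 10445.5 and 10037.2 in SFR KO, against 8972.0, 10037.7 and 9408.5 in wildtype, with SFR KO 1 the lowest of all 6. Cenpf, a large kinetochore protein, had 5644.1, 7199.4 and 7477.6 in SFR KO, against 6353.9, 7229.3 and 6868.2 in wildtype, again lowest in SFR KO 1.

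Of the 6 genes of spindle assembly, 1 was higher without overlap, against 9.78% of all tested genes, and the median was 0.05. Nusap1, whose protein bundles spindle microtubules, had 7833.5, 8535.0 and 8468.4 normalized reads in SFR KO, against 7406.5, 7593.4 and 7695.0 in wildtype. The difference was 0.13 ± 0.05 (adjusted p = 0.25), with each SFR KO library above each wildtype library. Tpx2, which activates Aurora A on the spindle, had 9419.0, 10263.7 and 9834.0 in SFR KO, against 9250.7, 10193.6 and 10108.3 in wildtype. The groups lay over each other, at -0.00 ± 0.06 (adjusted p = 0.995), and the sign turned under other scalings. The kinase gene Aurka stood at 0.03, the motor genes Kif11 and Kif2c at 0.08 and -0.00, and Hmmr, which encodes a spindle pole protein, at 0.09.

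All 5 genes of the midzone and cytokinesis overlapped between the genotypes, with a median of 0.05. Of all tested genes, 9.78% were higher and 11.9% lower without overlap. Kif20a, a motor of the central spindle, had 6534.8, 7154.5 and 6869.7 normalized reads in SFR KO, against 6076.1, 7143.1 and 6860.1 in wildtype. Apart from the low wildtype 1 the values were alike, and the difference was 0.04 ± 0.07 (adjusted p = 0.844), with the sign reversed when wildtype 1 was left out. Ect2, which activates the GTPase RhoA at the cleavage furrow, had 2798.4, 3288.8 and 3265.8 in SFR KO, against 2894.0, 2810.5 and 3040.0 in wildtype. SFR KO 1 was the lowest and the other SFR KO libraries the highest of the 6. Its difference was 0.09 ± 0.07 (adjusted p = 0.566), and -0.02 with the GC and length trends removed. Kif23, Prc1 and Anln stood at -0.03, 0.06 and 0.05.

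Among the 4 genes of anaphase and mitotic exit, 1 was higher without overlap, against 9.78% of all tested genes. This was Ube2c (chromosome 2, 164769898 to 164778822). It had 6773.3, 6649.8 and 6547.5 normalized reads in SFR KO, against 5771.4, 5762.5 and 6329.9 in wildtype. The difference was 0.16 ± 0.05 (adjusted p = 0.188), and it was 0.13, still without overlap, with the GC and length trends removed. Pttg1, the least abundant member by read count, had 478.9, 510.2 and 426.1 in SFR KO, against 378.1, 464.7 and 408.3 in wildtype. Its spread was wide for so similar a difference, 0.18 ± 0.11 (adjusted p = 0.474), and its interval reached 0.43, the highest upper bound of any member. Cdc20, the activator that MAD2 holds back, stood at 0.03, and the separase gene Espl1 at -0.01.

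The 7 genes of chromosome structure held both the most abundant members and the lowest difference. Ncapg, a subunit of condensin I, had 5778.1, 6081.6 and 5951.0 normalized reads in SFR KO, against 5533.5, 5146.0 and 5063.3 in wildtype. Its groups did not overlap, at 0.18 ± 0.05 (adjusted p = 0.149), and the difference was 0.05, with overlap, once the GC and length trends were removed. The other condensin genes overlapped, at 0.02 for Ncapd2, 0.04 for Ncaph, 0.12 for Smc2 and 0.13 for Smc4. Top2a had 38591.3, 46103.0 and 46135.3 in SFR KO, against 39855.1, 43731.5 and 41437.8 in wildtype. SFR KO 1 was the lowest of the 6 and the other SFR KO libraries were the highest, with a difference of 0.06 ± 0.08 (adjusted p = 0.753). Mki67 (chromosome 7, 135689784 to 135716361) had 42712.0, 64389.4 and 65493.3 in SFR KO, against 62043.9, 71884.4 and 65908.2 in wildtype. SFR KO 1 stood far below the other 5 libraries, which overlapped by genotype. The difference of -0.24 ± 0.15 (adjusted p = 0.472) was -0.03 without SFR KO 1 (adjusted p = 0.823), so its size rested on that library.

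**Figure D3:**
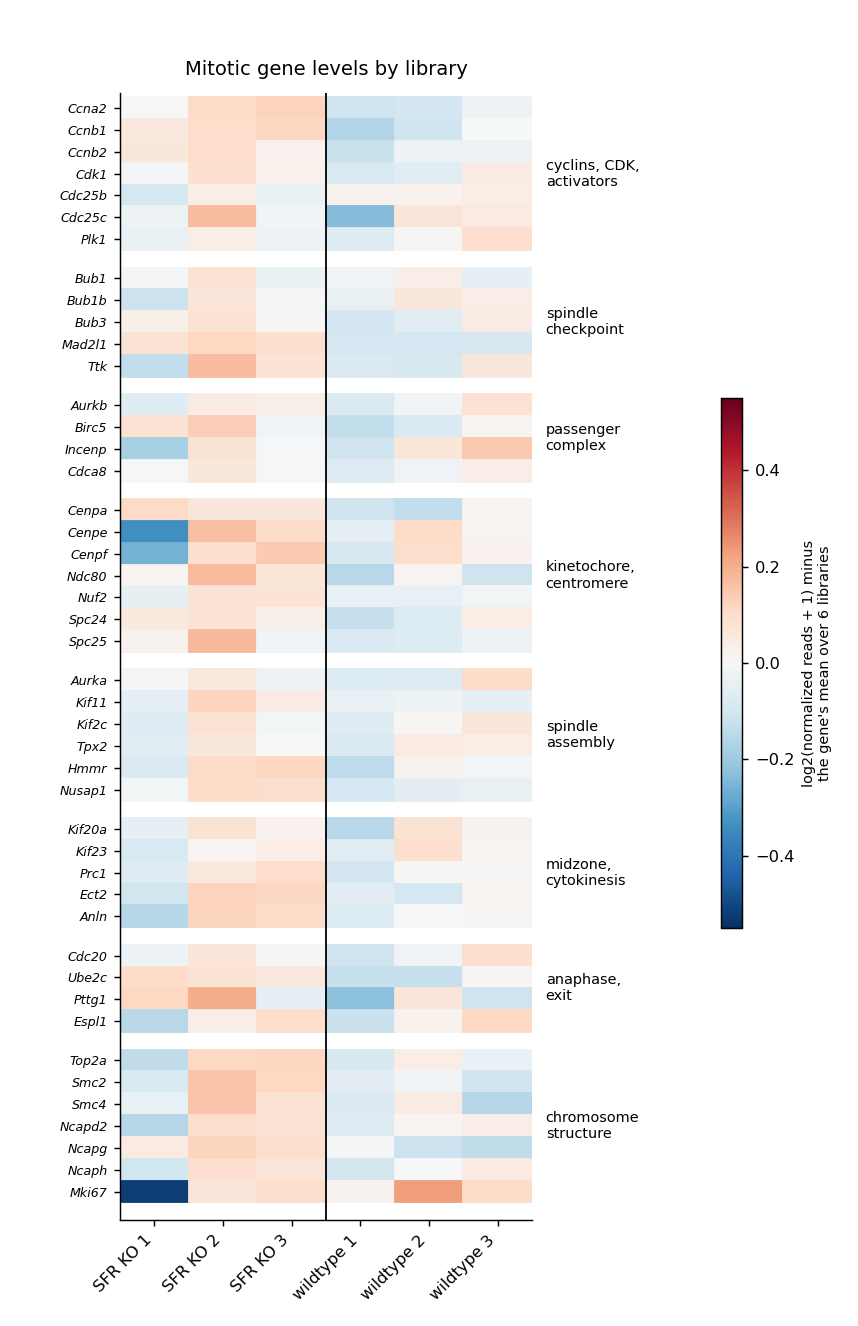
Level of each of the 45 mitotic genes in each library, as log2(normalized reads + 1) minus the mean of that gene over the 6 libraries (red above, blue below), with SFR KO left of wildtype and genes in 8 role groups. SFR KO 2 is red throughout and wildtype 1 blue almost throughout, while SFR KO 1 is dark blue for Mki67, Cenpe and Cenpf.

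Most members shared a pattern across libraries, within each genotype as well as between them. Taken as deviations from the mean over the 6 libraries on the log2 scale, their median was -0.05 in SFR KO 1, 0.09 in SFR KO 2 and 0.06 in SFR KO 3, against -0.09 in wildtype 1, -0.00 in wildtype 2 and 0.01 in wildtype 3. SFR KO 2 was the highest library for 29 of the 45 members, against 14.3% of all tested genes. Wildtype 1 was the lowest library for 22 members, against 16.2% of tested genes, and SFR KO 1 was the lowest for 17, against 22.4%. The genotypes therefore overlapped in the summary of the whole set, with SFR KO 1 below wildtype 2 and wildtype 3. With the GC and length trends removed the pattern remained, with SFR KO 2 highest for 32 members and wildtype 1 lowest for 29. Wildtype 1 also had the highest summed neutrophil and red cell genes of the 6 libraries. SFR KO 1, the lowest SFR KO library, had the highest resting follicular, neutrophil, macrophage and red cell sums of the SFR KO libraries. Other gene groups differed between the genotypes as well. The light zone is the part of the germinal centre where cells receive T cell help. Limma called 3 of its 10 listed genes lower in SFR KO (Myc, Cd83 and Egr1), against 42 of all 13562 tested genes. The list median was -0.20, and none of the 10 was called once the GC and length trends were removed. Transcripts of the mitochondrial genome were higher without overlap for 8 of 8 tested, against 9.78% of all tested genes. Limma called 2 of the 8 higher, against 21 of all 13562 tested genes, and none with both trends removed. Their median log2 difference was 0.51. All 11 listed transcripts of the mitochondrial genome summed to 760120.6, 760973.0 and 757053.1 normalized reads in SFR KO, against 463407.8, 660682.5 and 472038.9 in wildtype. The part of these other cells and gene groups in the mitotic levels was not tested.

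In SFR KO 1 the deviation of a member went with the length of its transcript. Across the 45 members Spearman's rho between length and deviation was -0.78 in SFR KO 1, 0.04 in SFR KO 2 and 0.54 in SFR KO 3, against 0.47 in wildtype 1, 0.48 in wildtype 2 and -0.02 in wildtype 3. These are descriptions across genes of 1 library each, which share that library's depth and preparation. The deviations of a gene sum to 0 over the 6 libraries. A trend in 1 library therefore pushes the others the opposite way, and the 6 values of rho are not independent. Across the 11399 coding genes the values had the same sign in 5 of the 6 libraries and were nearer 0 where the members' rho was large, at -0.31, -0.04 and 0.17 in SFR KO and 0.14, 0.14 and -0.06 in wildtype. The 6 members with transcripts of at least 5000 bases had a median deviation of -0.21, 0.10 and 0.11 in SFR KO, against -0.07, 0.07 and 0.02 in wildtype. The other 39 members stood at -0.03, 0.09 and 0.03 in SFR KO, against -0.09, -0.02 and 0.01 in wildtype. Without Mki67 the rho in SFR KO 1 was -0.76. Base composition moved with the libraries too: rho between GC content and deviation was 0.02, -0.61 and -0.51 in SFR KO, against -0.24, 0.10 and 0.72 in wildtype. Across the coding genes it was -0.17, -0.16 and -0.19 in SFR KO, against 0.03, 0.09 and 0.46 in wildtype. Members had a median GC content of 46.9% against 50.4% for coding genes, and a median transcript length of 2965 bases against 2824. Across members the log2 difference between genotypes had a rho of -0.45 with length and -0.42 with GC content. Across the coding genes these values were -0.12 and -0.30.

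**Figure D4:**
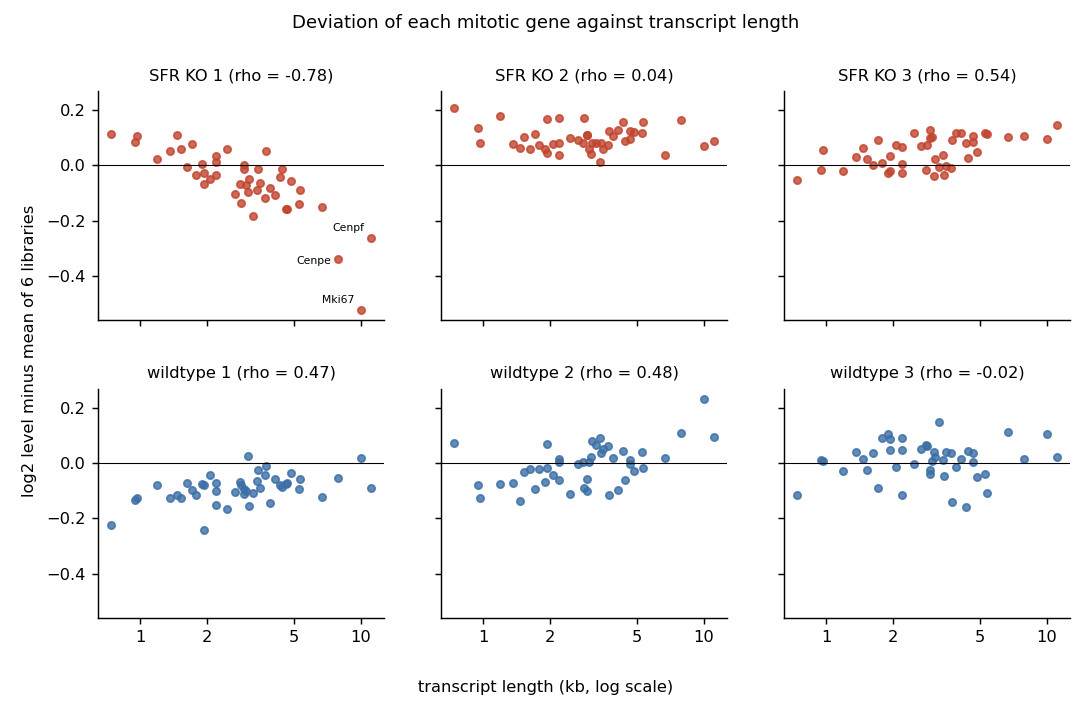
Deviation of each of the 45 mitotic genes from its mean over the 6 libraries (log2) against transcript length in kb (log scale), with 1 panel per library, SFR KO in the upper row and wildtype in the lower row. In SFR KO 1 the points fall with length (rho -0.78) down to Mki67 at -0.52, while rho in the other panels lies between -0.02 and 0.54.

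Other genes of mitosis, 135 in 7 lists of regulators, kinetochore, spindle, cohesin and chromosome proteins, lay between the members and all tested genes when joined. The lists were not alike, and much of the joined excess came from 1 of them. Limma called 0 of the 135 (against 0.465% of tested genes), edgeR 0 (against 0.221%) and DESeq2 2 (against 4.53%). An unadjusted p under 0.05 was reached by 17, of which 16 were higher in SFR KO, 11.9% against 7.04% of tested genes and 22.2% of the members. Their median log2 difference was 0.03, and 81 (60.0%) were above 0, against 49.3% of tested genes and 75.6% of the members. The groups did not overlap for 19 that were higher in SFR KO (14.1%), against 9.78% of tested genes and 20.0% of the members, and for 1 that was lower, against 11.9% of tested genes. The list of 33 other kinetochore and centromere proteins held 10 of the 16 and 9 of the 19, with a median of 0.09. Medians of the remaining lists lay between -0.05 (cohesin and its regulators) and 0.03 (mitotic entry control). The 3 largest differences among the genes named by rule were those of Cenpk, Anapc10 and Cenpl. Cenpk had 580.4, 575.9 and 577.9 normalized reads in SFR KO, against 490.5, 417.5 and 435.7 in wildtype, a log2 difference of 0.37 ± 0.09 (adjusted p = 0.106). Cenpl had 1589.4, 1820.6 and 1681.1 in SFR KO, against 1381.5, 1261.6 and 1473.8 in wildtype, at 0.31 ± 0.08 (adjusted p = 0.116). Both encode proteins of the inner kinetochore, and in neither did the groups overlap. Anapc10, a subunit of the anaphase-promoting complex, stood at 0.37 ± 0.10 (adjusted p = 0.146), and Cks2, a partner of CDK1, at 0.17 ± 0.05 (adjusted p = 0.155). Esco2, which acetylates cohesin, stood at 0.17 ± 0.06 (adjusted p = 0.19) and the condensin II gene Ncapg2 at 0.20 ± 0.07 (adjusted p = 0.217). The remaining genes named by the same rule stood at 0.19 (Esco1), 0.15 (Stil), 0.13 (Anapc11), 0.10 (Rbbp4 and Cks1b), 0.09 (Banf1) and -0.12 (E2f8). Numa1, which encodes a spindle pole protein, was the 1 without overlap that was lower, with 5692.4, 7140.3 and 7450.4 in SFR KO, against 7515.2, 8249.9 and 8408.0 in wildtype (-0.26 ± 0.10, adjusted p = 0.228).

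The genes of FOXM1 and B-MYB, named above as factors of mitotic promoters, did not stand higher in SFR KO. Whether these factors act on the members in these cells was not tested. Foxm1 had 4475.5, 5579.1 and 5222.3 normalized reads in SFR KO, against 5092.2, 5140.9 and 5786.5 in wildtype, at -0.07 ± 0.08 (adjusted p = 0.732). Mybl2, which encodes B-MYB, had 2570.8, 2977.8 and 2893.1 in SFR KO, against 2908.0, 2971.5 and 3493.0 in wildtype, at -0.15 ± 0.08 (adjusted p = 0.424). Both were lowest in SFR KO 1 and highest in wildtype 3, and the genotypes overlapped. Over the 18 genes of the list on transcription of mitotic genes the median difference was 0.00, with 9 above and 9 below 0. The groups did not overlap for 2 that were higher (against 9.78% of tested genes) and for 0 that were lower (against 11.9%).

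The genes of DNA replication and S phase, the step before, did not pass the test either. Limma called 0 of 37, and 2 had an unadjusted p under 0.05, of which 1 was higher in SFR KO (2.7%, against 7.04% of tested genes) and 1 lower. The groups did not overlap for 1 gene that was higher (2.7%, against 9.78%) and 1 that was lower (against 11.9%). The median log2 difference was 0.02, with 25 above 0 (67.6%, against 49.3% of tested genes). Their median deviation was -0.06, 0.06 and 0.03 in SFR KO, against -0.03, -0.01 and 0.03 in wildtype. SFR KO 2 was again the highest. The lowest was SFR KO 1, whereas for the members it was wildtype 1.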

How the data were processed

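The authors deposited, per gene, counts divided by a size factor for each library (a signal in normalized reads), with the log2 fold change, its standard error, a test score, a p-value and an adjusted p-value of their own comparison, per the file headers. STAR 2.5, featureCounts 1.5, DESeq2 1.14.1 and the build GRCm38 are named in the submitters' processing notes. The sources used here do not give the annotation release or the strand setting, and reads of overlapping antisense genes cannot be told apart. Whole reads were recovered from 100% of the values (within 1e-06), which gave between 28269310 and 33053024 reads per library. These recovered counts of the deposited table are used in edgeR and DESeq2 alone.

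The comparison was SFR KO (n = 3) against wildtype (n = 3). The main test was limma 3.58.1 (R 4.3.3; lmFit, eBayes with a trend, two-sided) on log2(normalized reads + 1) for the 13562 genes that averaged 10 normalized reads or more, with Benjamini-Hochberg adjustment over all of them and a threshold of 0.05. Differences on this scale understate the change of low genes. edgeR 4.0.16 (quasi-likelihood) and DESeq2 1.42.0 were alternatives, as were other pseudocounts, filters, scalings, library weights, a robust prior, subtraction of per-library trends along GC content and transcript length (a spline of 4 degrees of freedom), and leaving out each library. The scripts were tested on simulated data. Transcript length and GC content are those of 1 principal transcript per gene in GENCODE M21. Correlations across genes are descriptions, since genes are not independent replicates.

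The members and lists were chosen with earlier results of these data known. Values per library are given for members past the threshold and, in each of the 8 role groups, for the member with the highest level per kb and the one with the largest difference. For the lists of other mitotic genes the 2 genes with the smallest p are named, with Foxm1 and Mybl2. Other genes were named after their values were seen. Replicate numbers follow the order of the samples and pair nothing. Some markers of the sorted cells are not reported here.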

Additional observations from a re-analysis of the deposited data

How the results depend on the processing

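The median log2 difference of the members stayed above 0 in all 21 alternatives, and 0 members were called lower in any of them. Limma called 63 of all genes. It called 97 with a minimum mean of 1, 98 with a minimum mean of 50, 129 with no filter, 161 with a robust prior, 630 with library weights, and 17 after removal of the GC trend or of both trends. edgeR called 30 and DESeq2 483. With 1 library left out limma called between 11 and 501, and without SFR KO 1 and with both trends removed 285, the last a choice made after seeing the data, as were the counts of members without overlap under other settings and the levels on the longest transcript. The number of members called higher, 0 in limma, was 1 in DESeq2, 3 with library weights and 0 to 1 with a library left out. The number of related mitotic genes called, 0 in limma, was 2 in DESeq2, 6 with library weights, 0 to 2 with a library left out and 1 without SFR KO 1 and with both trends removed. Differences near 0 changed sign, none of them past the threshold. Tpx2, at -0.00 in the limma comparison, was at 0.0026 with TMM, 0.0161 with upper quartile scaling, 0.0049 in edgeR, 0.0016 in DESeq2, 0.027 with library weights, -0.0459 to 0.0297 with a library left out, and 0.0267 without SFR KO 1 and with both trends removed. Ect2 was at -0.0374 without the GC trend and -0.0175 without both trends. Kif20a lay between -0.0316 and 0.0851 with a library left out, and Cdc25b was at 0.0226 without SFR KO 1 and with both trends removed. The cause of these shifts was not tested. No paired analysis was possible because the replicate numbers follow sample order and mark no shared mouse, litter or day.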
